A study of Homo sapiens with 12 samples.

Results

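The enzymes that build serine from glucose and pass its carbon into folate-bound one-carbon units were followed in tumor-associated macrophages (TAMs). The genes were taken by symbol from the deposited count table: PHGDH, PSAT1, PSPH, SHMT1, SHMT2, MTHFD1, MTHFD2, MTHFD1L, ALDH1L2 and TYMS, 10 of 58735 genes, by a rule on pathway membership. The rule itself uses no measured value, but the genes were chosen with earlier results of these data known. All 10 were among the 16046 genes that passed edgeR's filter on low counts. The TAMs were THP-1 cells, a human acute monocytic leukemia line, differentiated with phorbol ester (PMA) and cocultured across a permeable membrane with the pancreatic cancer line AsPC-1. In the control group the AsPC-1 cells carried an empty vector, and in the OE-MMP28 group they overexpressed the matrix metalloproteinase MMP28. In the other groups, written anti-IL-8 and anti-VEGFA, the OE-MMP28 coculture also received the neutralizing antibody MAB208-SP or MAB293-SP, so every antibody group shares the overexpression. Each of the 4 groups held 3 libraries. No group is named for a control antibody. The study describes its cell experiments as independently repeated and its sequenced samples as triplicates, without saying whether the 3 libraries of a group came from separate cultures, so p-values measure the spread between these libraries, which may be technical. In RNA from whole cultures, fewer cells that express a gene and less of its RNA per cell cannot be told apart.

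Serine is made from the glycolytic intermediate phosphoglycerate in 3 steps: PHGDH oxidizes it and commits carbon to the pathway, PSAT1 adds the amino group and PSPH removes the phosphate. Serine hydroxymethyltransferase, SHMT1 in the cytosol and SHMT2 in mitochondria, then splits serine into glycine and a one-carbon unit held by folate. In mitochondria MTHFD2 oxidizes that unit and MTHFD1L releases it as formate, while ALDH1L2 burns it to carbon dioxide with production of NADPH. In the cytosol MTHFD1 takes formate back up for purine synthesis, and TYMS uses the unit to make thymidylate for DNA. In many cell types the transcription factor ATF4 is known to induce PHGDH, PSAT1, SHMT2 and MTHFD2 when amino acids run short.

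The 12 libraries held 15852346 to 18701195 counts each. The share of counts in mitochondrial genes ran from 6.92% to 17.8%, with both the lowest and the highest share among the anti-VEGFA libraries. MMP28 had 0 counts in all 12 libraries, and since it was overexpressed in the cells on the other side of the membrane, this checks nothing. Of 14 macrophage markers 12 passed the filter, with CD14 at 11260 to 28850 and CSF1R at 1668 to 3249 counts per library, but CD68 had at most 5 and MRC1 at most 4. Why CD68 had so few counts was not tested, so its absence from the cells is not claimed. The summed level of the macrophage list was 5285 to 5884 CPM (counts scaled to a library of fixed size with edgeR's TMM factors) in control, 5341 to 7857 in OE-MMP28, 6853 to 8847 in anti-IL-8 and 6207 to 7356 in anti-VEGFA. Of 11 epithelial markers, EPCAM was at 0 in every library and the keratins KRT8, KRT18 and KRT19 had at most 7 counts. The 3 that passed the filter were MUC1 with 28 to 65 counts, KRT7 with 4 to 22 and ELF3 with 1 to 15. MUC1 was lower with OE-MMP28 than in control (log2 fold change -1.01, adjusted p = 0.0341 in edgeR's quasi-likelihood test). The summed level of the epithelial list was 4.85 to 6.39 CPM in control and 3.13 to 5.52 CPM in the other groups. Libraries also differed in how counts varied with GC content: per 10 percentage points of GC, log2 CPM changed by -0.15 to -0.07 in control, -0.36 to 0.03 in OE-MMP28, 0.10 to 0.24 in anti-IL-8 and 0.04 to 0.12 in anti-VEGFA. PHGDH (52.3% GC) and SHMT2 (57.0%) are richer in GC than PSAT1 (42.3%) and MTHFD2 (41.4%), so values with per-library offsets for GC and length, chosen after seeing the data, are given beside results they touch.

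Mitochondrial SHMT2 and MTHFD2 were far more abundant than cytosolic SHMT1 and MTHFD1. Mitochondrial ALDH1L2 was not above MTHFD1, but its own cytosolic counterpart ALDH1L1 had 0 counts in every library. On the authors' FPKM scale, which divides by gene length, the mean level over the 12 libraries was 77.9 ± 12.1 for PSAT1, 71.7 ± 8.78 for MTHFD2, 46.3 ± 9.08 for SHMT2 and 29.2 ± 9.93 for PHGDH (SD, n = 12). MTHFD1L followed at 11.8 ± 2.03 FPKM. Cytosolic MTHFD1 (4.27 ± 0.581), PSPH (3.83 ± 0.479) and ALDH1L2 (3.22 ± 0.714) overlapped within 1 SD of their means, and TYMS (1.05 ± 0.296) and SHMT1 (0.653 ± 0.0976) were lowest. This order depends on the gene lengths used, which were 9217 bases for PHGDH and 2188 for PSAT1. Without division by length, PHGDH averaged 271 CPM and PSAT1 172 CPM. SHMT2 exceeded its cytosolic counterpart SHMT1 in every library, by 55.1 to 95.4 times per length and 36.6 to 63.4 times in counts. MTHFD2 exceeded MTHFD1 by 14.7 to 20.9 times per length and 7.61 to 10.9 times in counts. In control PSAT1 was at 68.0 ± 7.78 and MTHFD2 at 75.3 ± 7.51 FPKM, which overlap (SD, n = 3). In OE-MMP28 PSAT1 was at 91.5 ± 4.75 and MTHFD2 at 78.4 ± 1.93 FPKM, which do not. In counts PSAT1 was below MTHFD2 in every library, at 0.392 to 0.542 times its count.

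**Figure D1:**
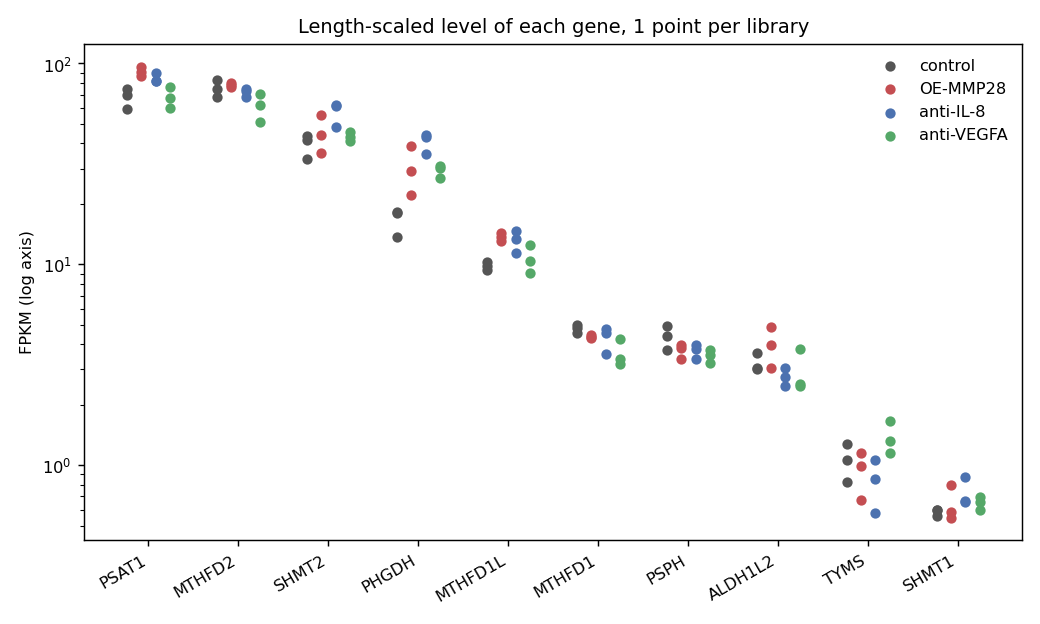
Level of the 10 enzymes in FPKM (log axis), 1 point per library and 1 color per group, ordered by the mean over 12 libraries. PSAT1 and MTHFD2 lead at 77.9 and 71.7 FPKM, SHMT1 is lowest at 0.653, and PHGDH spreads most widely among the abundant genes.

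The enzymes differed in how much they varied. The highest library exceeded the lowest 3.16 times for PHGDH and 2.91 times for TYMS, which rests on only 22 to 70 counts. For ALDH1L2 the factor was 1.98 and for SHMT2 1.80, and it was 1.54 to 1.63 for the other 6 genes. Together the 10 genes took 10.4 ± 1.09 of every 10000 counts in control, 12.5 ± 0.390 in OE-MMP28, 13.0 ± 0.353 in anti-IL-8 and 10.7 ± 1.07 in anti-VEGFA (SD, n = 3). The makeup of that sum shifted between the entry enzyme and the abundant mitochondrial dehydrogenase. PHGDH supplied 15.3% ± 0.949 of the 10 genes' counts in control, 22.1% ± 4.32 in OE-MMP28, 28.1% ± 1.31 in anti-IL-8 and 25.6% ± 0.511 in anti-VEGFA. MTHFD2 supplied 36.7% ± 1.27 in control, 31.0% ± 2.97 in OE-MMP28, 26.4% ± 2.40 in anti-IL-8 and 28.1% ± 2.16 in anti-VEGFA.

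**Figure D2:**
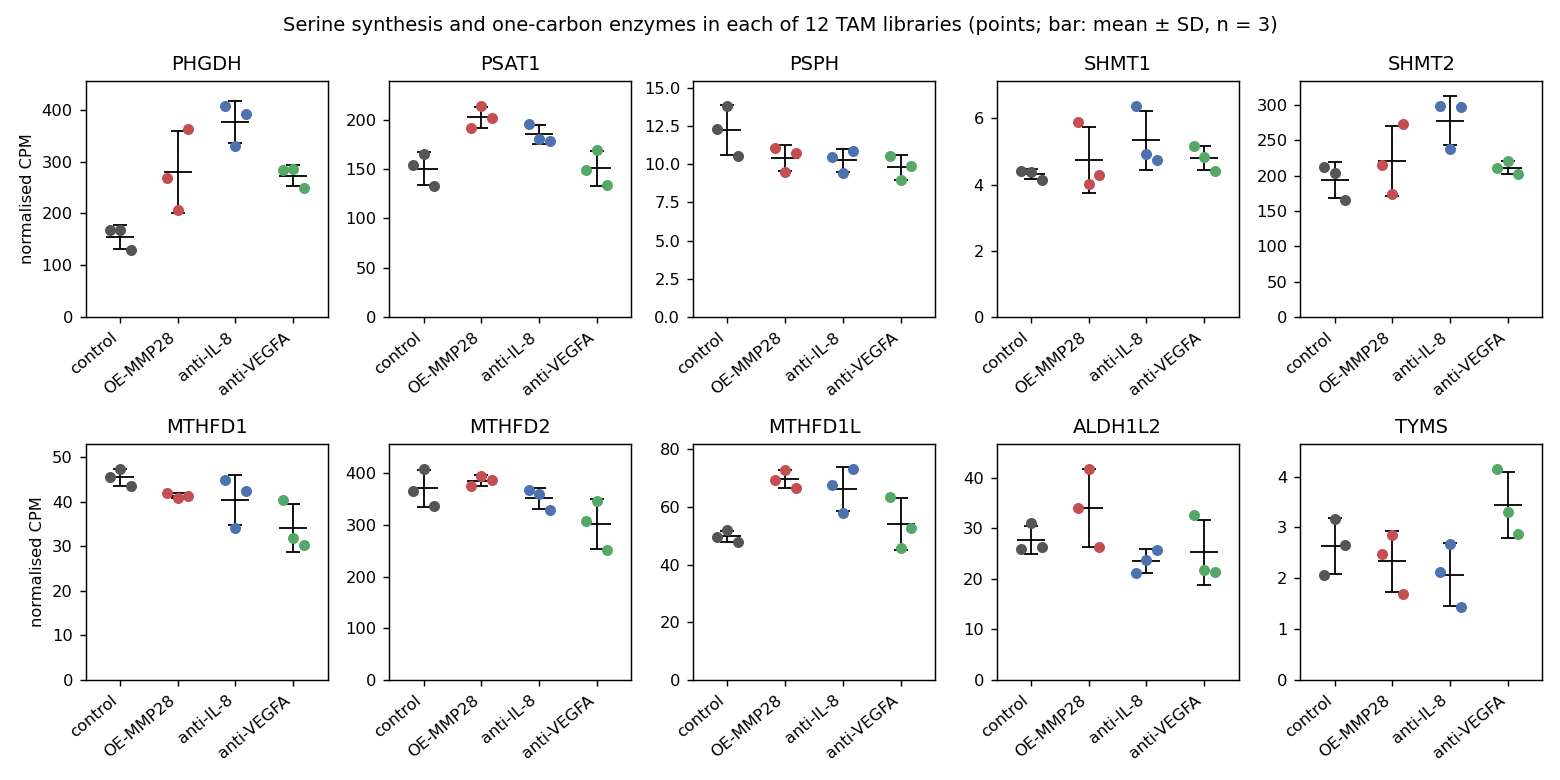
TMM-scaled CPM of each enzyme (vertical axes from 0) in the 3 libraries of each group, with mean and SD as bars. For PHGDH the 9 libraries with OE-MMP28, with or without antibody, lie between 207 and 407 CPM, all above the 3 control libraries at 129 to 169.

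Sequence near the starts of PHGDH, PSAT1 and MTHFD1L, which differed among the 4 groups, is shown here as context for the levels that follow, with that of MTHFD2, which is compared with PSAT1, and TYMS, which closes the pathway. RefSeq promoter sequences (GRCh38.p14) were at hand for 7 of the 10 genes, not for PSPH, SHMT2 and ALDH1L2. The 250 bases before each start were searched on both strands for 5 motifs. They were TGATGNAA, the core of the amino acid response element that ATF4 binds (in 3.14% of 35116 promoters), the cyclic AMP response element TGACGTCA (1.65%), the E-box CACGTG that MYC binds (6.34%), the E2F sites TTTGGCGC, TTTCCCGC, TTTCGCGC and TTTGCCGC (2.79%), and TGANNNNGC, the core of the antioxidant response element of NFE2L2 (35.2%). No match overlapped another, and a match is a description of letters, not a site in use. In the stretches below, all on the plus strand and written 5′ to 3′, capitals mark a match.
PSAT1, chr9:78296875-78297124, all 250 bases before the start, in no annotated exon of the gene and without a match: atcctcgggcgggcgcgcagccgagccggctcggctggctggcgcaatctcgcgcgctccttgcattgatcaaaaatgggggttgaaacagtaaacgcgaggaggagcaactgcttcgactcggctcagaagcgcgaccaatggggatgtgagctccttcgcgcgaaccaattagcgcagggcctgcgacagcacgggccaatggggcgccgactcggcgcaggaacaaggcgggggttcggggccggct
MTHFD2, chr2:74198365-74198561, the 197 bases before its first annotated exon, without a match: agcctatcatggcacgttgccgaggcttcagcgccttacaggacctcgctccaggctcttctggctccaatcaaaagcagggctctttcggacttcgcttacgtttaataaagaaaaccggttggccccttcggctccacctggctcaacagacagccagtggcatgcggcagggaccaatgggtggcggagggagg
PHGDH, chr1:119711797-119711825, 29 bases that all lie in an annotated UTR of a transcript starting farther upstream, with the antioxidant core on the opposite strand: cagggatttgGCAACCTCAgagccgcgag
MTHFD1L, chr6:150866329-150866367, 39 bases, 26 of them annotated as UTR and 9 as coding, with the E-box and then the amino acid response core: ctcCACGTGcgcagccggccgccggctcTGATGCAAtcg
TYMS, chr18:657603-657632, 30 bases, 29 of them in an annotated UTR, with an E2F match on the opposite strand: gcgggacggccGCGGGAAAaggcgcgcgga
MTHFD1L was thus the only one of the 7 genes with the amino acid response core in a searched window. It also had the most windows, 4 of 10, and that of its first start, not shown, held the antioxidant core. MTHFD1, not shown, held an E-box and the antioxidant core, and SHMT1 the antioxidant core alone.

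To see whether MMP28 overexpression in the cancer cells was accompanied by a change in these enzymes, OE-MMP28 was compared with the control group. PHGDH rose, and no other of the 10 genes passed an adjusted p of 0.05 (edgeR's quasi-likelihood test, Benjamini-Hochberg over all 16046 genes). PSAT1, the next enzyme, and MTHFD1L, the mitochondrial formate-releasing enzyme, were higher in every OE-MMP28 library than in any control library and passed an unadjusted threshold of 0.05. Of all genes tested, 3.16% passed the adjusted and 14.5% the unadjusted threshold, so 1 and 3 of 10 genes stand beside those shares. The libraries did not overlap for 4 of the 10 genes, against 21.3% of all genes. The median log2 fold change of the 10 genes was 0.16, with 7 higher, and that of all genes 0.02.

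PHGDH (ENSG00000092621, chr1:119648411-119744226, plus strand) stood at 169, 168 and 129 CPM in the control libraries, at 269, 207 and 364 CPM with OE-MMP28, at 407, 330 and 393 CPM in anti-IL-8 and at 283, 285 and 250 CPM in anti-VEGFA. Control lay below every other library, and the OE-MMP28 libraries were the most scattered. From 155 ± 22.8 to 280 ± 78.9 CPM (SD, n = 3), the log2 fold change with OE-MMP28 was 0.85 (SE 0.17, adjusted p = 0.00734). Without the lowest control library, replicate 3, it was 0.73 with an adjusted p of 0.0667 and the call was lost. Without OE-MMP28 replicate 3, the highest of its group, it was 0.62 with an adjusted p of 0.0272, and with GC and length offsets it was 0.92 with an adjusted p of 0.00189. Of 12 macrophage markers tested, 2 rose with OE-MMP28, CD14 (0.80, adjusted p = 0.0272) and FCGR2A (0.44, adjusted p = 0.0495), beside 3.16% of all genes. The median log2 fold change of the 12 was 0.18. The summed level of the list was 6518, 5341 and 7857 CPM in the OE-MMP28 libraries, in the same order as PHGDH. CTSB and CD14, with medians of 3454 and 1265 CPM, were its largest parts. The part of the macrophage markers in the result was not tested.

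PSAT1 (ENSG00000135069, chr9:78297143-78330093, plus strand) stood at 154, 165 and 132 CPM in control, at 192, 214 and 201 CPM with OE-MMP28, at 196, 181 and 178 CPM in anti-IL-8 and at 149, 169 and 134 CPM in anti-VEGFA. The OE-MMP28 and anti-IL-8 libraries all exceeded the control libraries, and the anti-VEGFA libraries lay among them. With OE-MMP28 the log2 fold change was 0.43 (SE 0.12, adjusted p = 0.0759). MTHFD1L (ENSG00000120254, chr6:150865549-151101887, plus strand) stood at 49.5, 51.9 and 48.0 CPM in control, at 69.2, 72.9 and 66.8 CPM with OE-MMP28, at 67.8, 58.0 and 73.2 CPM in anti-IL-8 and at 63.5, 45.9 and 52.8 CPM in anti-VEGFA. Its OE-MMP28 libraries were tightly grouped and well above control, with a log2 fold change of 0.48 (SE 0.13, adjusted p = 0.0569). Both genes crossed the adjusted threshold with DESeq2 (adjusted p = 0.0298 for PSAT1 and 0.0233 for MTHFD1L, where it called 4.14% of all genes) and with GC and length offsets (0.0335 and 0.00755). They did not with limma's voom, the nearest here to the study's own limma test. It called 1 of the 10 genes, beside 525 of all 16046 genes.

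The remaining enzymes gave no call in this comparison. The phosphatase PSPH, last in serine synthesis, went from 12.2 ± 1.63 to 10.4 ± 0.855 CPM, opposite in sign to the enzymes before it (log2 fold change -0.23, adjusted p = 0.545). SHMT2 went from 194 ± 25.1 to 221 ± 49.3 CPM, and MTHFD2 from 371 ± 35.7 to 386 ± 10.1 CPM. Cytosolic MTHFD1 was 43.6 to 47.4 CPM in control and 40.9 to 42.1 CPM with OE-MMP28, below control in every library but by a log2 fold change of only -0.14 (adjusted p = 0.712). TYMS, at 22 to 70 counts per library, had an SE of 0.28 to 0.30 in each of the 6 comparisons between groups, so a change of its size here (-0.17) was not detectable at this depth.

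**Figure D3:**
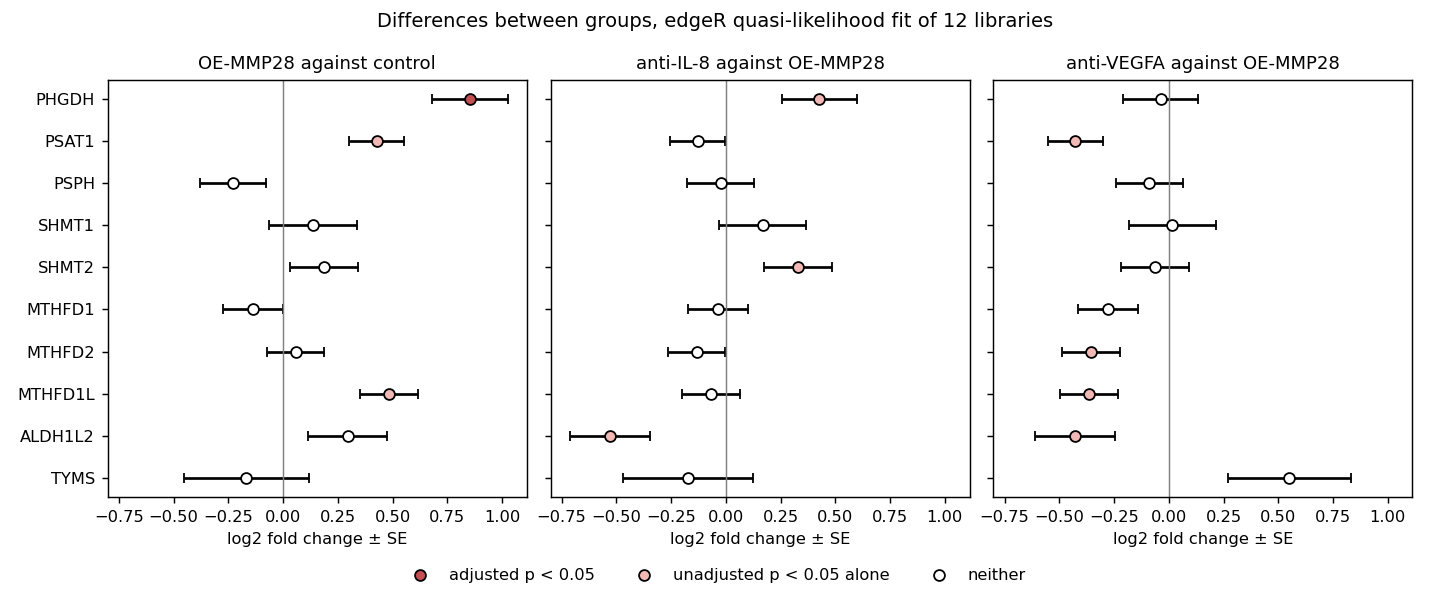
Log2 fold change ± SE of the 10 enzymes in 3 comparisons, from a fit of all 12 libraries; dark points passed an adjusted p of 0.05, light points an unadjusted p of 0.05 alone and white points neither. PHGDH in OE-MMP28 against control, at 0.85, is the only dark point.

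The anti-IL-8 antibody was compared with OE-MMP28 alone, to see how the enzymes stood once the cytokine IL-8 was neutralized. None of the 10 genes passed the adjusted threshold in edgeR, where 0% of all genes did. At an unadjusted p under 0.05, PHGDH and SHMT2 were higher and ALDH1L2 lower, 3 of 10 genes against 29.3% of all genes. DESeq2 called 1 of the 10, ALDH1L2, where it called 13.2% of all genes, and voom 0, where it called 0 of all genes. The libraries did not overlap for MTHFD2 and ALDH1L2, 2 of 10 genes against 29.0% of all genes.

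For PHGDH the step from 280 ± 78.9 to 377 ± 41.0 CPM (SD, n = 3) was upward, not back toward control (log2 fold change 0.43, SE 0.17, adjusted p = 0.115). It rested on the scatter of the OE-MMP28 libraries: without OE-MMP28 replicate 3 the log2 fold change was 0.69 with an adjusted p of 0.00610, and without replicate 2 it was 0.25 with an adjusted p of 0.468. SHMT2, which makes the mitochondrial one-carbon unit from serine (ENSG00000182199, chr12:57229327-57234935, plus strand), stood at 212, 204 and 165 CPM in control, at 215, 174 and 273 CPM with OE-MMP28, at 298, 238 and 297 CPM in anti-IL-8 and at 211, 221 and 202 CPM in anti-VEGFA. Its anti-IL-8 libraries were the highest group but overlapped OE-MMP28. The log2 fold change against OE-MMP28 was 0.33 (SE 0.16, adjusted p = 0.165), and 0.07 with GC and length offsets. The mitochondrial NADPH producer ALDH1L2 stood at 34.0, 41.8 and 26.2 CPM with OE-MMP28 and at 21.1, 23.8 and 25.7 CPM with anti-IL-8. Every anti-IL-8 library lay below every OE-MMP28 library, the nearest pair by little, and the log2 fold change of -0.53 (SE 0.18, adjusted p = 0.0810) was -0.25 with GC and length offsets. Without OE-MMP28 replicate 3, PHGDH, SHMT2 and ALDH1L2 passed the adjusted threshold, and 4203 of all genes did where 0 did with it.

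**Figure D4:**
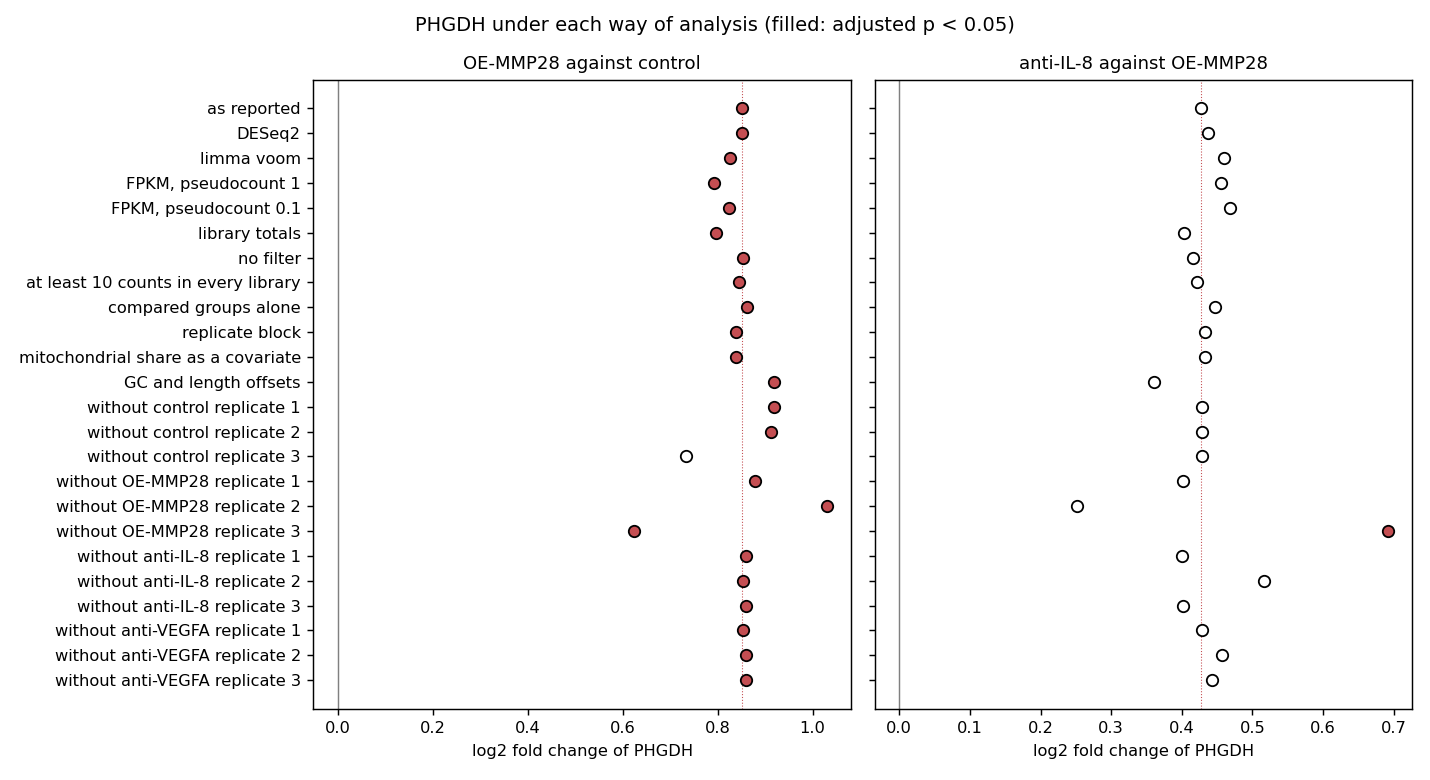
Log2 fold change of PHGDH under each way of analysis (rows) for OE-MMP28 against control (left) and anti-IL-8 against OE-MMP28 (right); filled points passed an adjusted p of 0.05 and the dotted line marks the reported value. On the left all points lie between 0.62 and 1.03 and 1 of them, without control replicate 3, is open; on the right only the point without OE-MMP28 replicate 3, at 0.69, is filled.

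The anti-VEGFA antibody was compared with OE-MMP28 in the same way. It shares the OE-MMP28 libraries with both comparisons above. None of the 10 genes passed the adjusted threshold in edgeR, which 0.343% of all genes did. At an unadjusted p under 0.05, PSAT1, MTHFD2, MTHFD1L and ALDH1L2 were all lower with anti-VEGFA, 4 of 10 genes against 18.8% of all genes. At the adjusted threshold DESeq2 called PSAT1, where it called 2.67% of all genes. There voom called none of the 10, beside 70 of all 16046 genes. The libraries did not overlap for 5 of 10 genes (PSAT1, MTHFD1, MTHFD2, MTHFD1L and TYMS), against 18.1% of all genes. The median log2 fold change of the 10 genes was -0.18, with 2 higher, beside 0.00 for all genes.

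PSAT1 was at 151 ± 17.6 CPM with anti-VEGFA against 202 ± 10.8 CPM with OE-MMP28 (SD, n = 3), a log2 fold change of -0.43 (SE 0.12, adjusted p = 0.109). With GC and length offsets it was -0.27 with an adjusted p of 0.295. MTHFD2 (ENSG00000065911, chr2:74198562-74217565, plus strand), the most abundant mitochondrial folate enzyme of the 10, stood at 366, 408 and 337 CPM in control, at 376, 396 and 386 CPM with OE-MMP28, at 367, 360 and 329 CPM in anti-IL-8 and at 307, 347 and 251 CPM in anti-VEGFA. Its level was lower with anti-VEGFA than in any OE-MMP28 library, by a log2 fold change of -0.36 (SE 0.13, adjusted p = 0.171), or -0.17 with the offsets. MTHFD1L differed by -0.36 (SE 0.13, adjusted p = 0.167) and ALDH1L2 by -0.43 (SE 0.18, adjusted p = 0.218). PHGDH did not follow these genes: it was at 273 ± 19.8 CPM with anti-VEGFA and its log2 fold change was -0.04 (SE 0.17, adjusted p = 0.930). The TYMS libraries were at 4.15, 3.30 and 2.88 CPM with anti-VEGFA and at 2.47, 2.86 and 1.68 CPM with OE-MMP28, at 70, 52 and 54 against 45, 49 and 27 counts. They barely failed to overlap and the log2 fold change was 0.55 (SE 0.28, adjusted p = 0.301).

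Set against control, the antibody groups kept the higher PHGDH level. These comparisons share the control libraries with the first, so they are no independent evidence of it. With anti-IL-8, PHGDH rose by a log2 fold change of 1.28 (SE 0.17, adjusted p = 0.000106), the largest difference of any of the 10 genes in the 6 comparisons. SHMT2 rose by 0.52 (SE 0.16, adjusted p = 0.0272) and MTHFD1L by 0.41 (SE 0.13, adjusted p = 0.0364). These were 3 of 10 genes, against 20.7% of all genes, and 6 of 10 did not overlap, against 47.8% of all genes. The calls for SHMT2 and MTHFD1L were fragile, each lost without control replicate 3 (0.42 and 0.39, adjusted p = 0.133 and 0.124) and without several other single libraries, and SHMT2 was at 0.29 with an adjusted p of 0.0858 under GC and length offsets. With anti-VEGFA, PHGDH rose by 0.81 (SE 0.17, adjusted p = 0.00638), 1 of 10 genes against 11.0% of all genes. MTHFD1 was lowest there, at 40.3, 31.9 and 30.3 CPM against 45.5, 47.4 and 43.6 CPM in control, a log2 fold change of -0.41 (SE 0.14, adjusted p = 0.0600).

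The antibody groups were also compared with each other. None of the 10 genes passed the adjusted threshold in edgeR, which 0.199% of all genes did. Neither DESeq2 nor voom called one, where they called 245 and 31 of all 16046 genes. PHGDH differed by -0.46 (SE 0.17, adjusted p = 0.232), SHMT2 by -0.39 (SE 0.16), PSAT1 by -0.30 (SE 0.12) and MTHFD1L by -0.29 (SE 0.13), all lower with anti-VEGFA, and TYMS by 0.72 (SE 0.29). In a joint test of any difference among the 4 groups, PHGDH (adjusted p = 0.000850), PSAT1 (0.0368) and MTHFD1L (0.0369) passed. That is 3 of 10 genes, against 17.2% of all genes. With library totals in place of TMM 1 passed, and with 1 library left out 1 to 5 did, with 1 in each of the 3 fits without a control library.

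Ratios within a library set aside the scaling between libraries. Of 6 ratios computed, PHGDH to SHMT2 and PSAT1 to MTHFD2 were chosen for display after their values were seen. Others were no steadier than the levels: within OE-MMP28, SHMT2 to SHMT1 was 47.8 ± 13.9 and SHMT2 to MTHFD2 0.573 ± 0.132 (SD, n = 3). MTHFD2 to MTHFD1 also lay apart from control with OE-MMP28 alone, at 8.93 to 9.67 against 7.74 to 8.62. With antibody it overlapped control, at 7.76 to 10.5 in anti-IL-8 and 7.61 to 10.9 in anti-VEGFA. The count of PHGDH relative to SHMT2 was 0.797, 0.820 and 0.780 in control. It was 1.19 to 1.33 in OE-MMP28, 1.32 to 1.39 in anti-IL-8, and 1.24 to 1.34 in anti-VEGFA. The 9 libraries with OE-MMP28 thus lay apart from control, with a relative spread within OE-MMP28 far below that of PHGDH itself. PSAT1 relative to MTHFD2 was 0.420, 0.404 and 0.392 in control. It was 0.511 to 0.540 in OE-MMP28, 0.503 to 0.542 in anti-IL-8, and 0.485 to 0.533 in anti-VEGFA. Here too every library with OE-MMP28 exceeded control, and the 3 groups that contain it overlapped each other. The lower PSAT1 level with anti-VEGFA went with a lower MTHFD2 level in the same libraries. PHGDH relative to PSAT1, in contrast, ran from 0.970 to 1.81 within OE-MMP28, a range that reached below the highest control value of 1.10. An exact two-sided permutation test of 3 against 3 libraries cannot go below p = 0.1. PHGDH to SHMT2, PSAT1 to MTHFD2 and MTHFD2 to MTHFD1 reached that value between OE-MMP28 and control, so these ratios are a description.

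**Figure D5:**
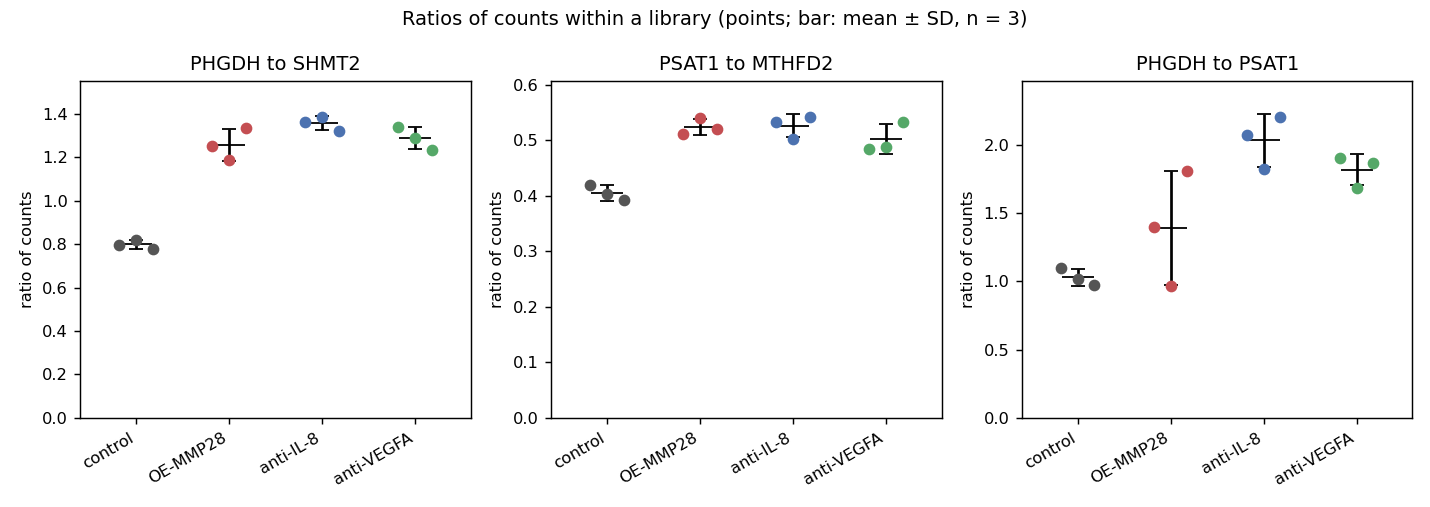
Ratio of counts within each library (vertical axes from 0) by group, with mean and SD as bars. PHGDH to SHMT2 is 0.780 to 0.820 in control and 1.19 to 1.39 elsewhere, PSAT1 to MTHFD2 is 0.392 to 0.420 in control and 0.485 to 0.542 elsewhere, and PHGDH to PSAT1 overlaps between OE-MMP28 and control.

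Libraries were also set against their group mean. For PHGDH with SHMT2 and PSAT1 with MTHFD2 this largely restates the steady ratios above and is no separate evidence of a pairing. Over the 12 libraries, deviations of log2 CPM correlated with r = 0.98 between PHGDH and SHMT2, 0.92 between PSAT1 and MTHFD2 and 0.81 between MTHFD1 and MTHFD1L. Between PHGDH and PSAT1 the value was 0.31. The genes of the first pair are rich in GC and those of the second poor, and the libraries differed in their slope on GC content. OE-MMP28 replicate 2, with the slope of -0.36, had the lowest PHGDH of its group, and replicate 3, with 0.03, the highest. The part of GC content in these correlations was not tested. Over all protein-coding genes with a mean of at least 50 counts (10546 compared), TIMM50, a mitochondrial import subunit (r = 0.99), and VAT1 (0.98) were among those most like PHGDH across the 12 libraries. Those most like PSAT1 were SLBP, which binds histone mRNA (0.95), RPP38 (0.93) and the glycyl-tRNA synthetase GARS (0.92). For MTHFD2 they were MCUB (0.91), IFT52 (0.89) and ZADH2 (0.88), and for TYMS RBM41 (0.88), FNBP4 (0.84) and TESMIN (0.84). The libraries share their group differences and their slopes, so these values are descriptions.

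Among known regulators of these enzymes, ATF4 mRNA stood at 730 ± 38.6 CPM in control, 919 ± 206 in OE-MMP28, 1045 ± 68.0 in anti-IL-8 and 933 ± 223 in anti-VEGFA (SD, n = 3). It passed the adjusted threshold with anti-IL-8 against control alone (log2 fold change 0.52, SE 0.17, adjusted p = 0.0406), and with OE-MMP28 against control its log2 fold change was 0.33 (adjusted p = 0.397). MYC was at 82.9 ± 6.04 CPM in control, 83.8 ± 9.13 in OE-MMP28, 70.8 ± 8.25 in anti-IL-8 and 59.0 ± 13.6 in anti-VEGFA. In anti-VEGFA against control the log2 fold change of MYC was -0.49, with an adjusted p of 0.0529 in edgeR, 0.0343 in DESeq2 and 0.0454 in voom, and no tool called it in the other 5 comparisons. NFE2L2, the regulator of antioxidant genes, was at 145 ± 11.7, 173 ± 43.3, 114 ± 17.1 and 150 ± 17.7 CPM in the same order. In anti-IL-8 against OE-MMP28 the log2 fold change of NFE2L2 was -0.60, with an adjusted p of 0.0627 in edgeR, 0.0179 in DESeq2 and 0.0607 in voom, and no tool called it elsewhere. EIF2AK2, a kinase upstream of ATF4 that interferon induces, fell with OE-MMP28 against control by 2.02 on the log2 scale (SE 0.17, adjusted p = 2.21e-07). It was the only 1 of 14 regulators called in that comparison by edgeR or voom. These called 3.16% of all genes in edgeR and 525 of all 16046 genes in voom. DESeq2 called 2, beside 4.14% of all genes. A list of 23 interferon-stimulated genes moved with it: all 23 were lower with OE-MMP28 than in control at the adjusted threshold, with a summed level of 5031 to 7049 CPM in control and 911 to 1509 CPM in the other groups. The part of that difference in the results on serine enzymes was not tested.

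The wider amino acid shortage response, of which ATF4 is the main known regulator, was followed with 26 other genes, listed with earlier results of these data known. With OE-MMP28 against control 4 rose and 1 fell, where 3.16% of all genes were called. The median difference was 0.26 on the log2 scale, beside 0.02 for all genes. The 4 were VLDLR, a lipoprotein receptor (0.76, adjusted p = 0.00396), the secreted glycoprotein gene STC2 (0.66, adjusted p = 0.0150), the seryl-tRNA synthetase SARS (0.53, adjusted p = 0.0201) and SLC7A5, a carrier of large neutral amino acids (0.59, adjusted p = 0.0333). ATF3, a stress-induced transcription factor, fell by 0.51 on the log2 scale (adjusted p = 0.0150). ASNS, the asparagine synthetase, was at 1.35 ± 0.301 CPM in control and 2.15 ± 0.214 CPM with OE-MMP28 (adjusted p = 0.263). With anti-IL-8 against control 11 rose and 1 fell, where 20.7% of all genes were called. For anti-VEGFA against control 2 rose and 1 fell, near the 11.0% of all genes called there. Against OE-MMP28 none passed under either antibody in edgeR. At an unadjusted p under 0.05, 16 and 6 did in the same order, beside 29.3% and 18.8% of all genes. DESeq2 called 8 and 2 of the 26, beside 13.2% and 2.67% of all genes, and voom 0 and 0, beside 0 and 70 of all 16046 genes. In anti-IL-8 against control the smallest adjusted p-values belonged to SLC7A5 (log2 fold change 1.05), STC2 (1.05), TRIB3, an inducible brake on the same response (0.76), and SARS (0.70).

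Enzymes on either side of the pathway were followed in the same way. None of 12 tested folate carriers and other folate enzymes, 11 serine and glycine carriers, 12 genes of purine ring synthesis, 8 of the methionine and transsulfuration pathways and 7 of glutathione synthesis passed the adjusted threshold in OE-MMP28 against control in edgeR. At an unadjusted p under 0.05, 1, 1, 1, 1 and 2 did, beside 14.5% of all genes. DESeq2 and voom called 0 of them, beside 4.14% of all genes in DESeq2 and 525 of all 16046 genes in voom. Of 9 genes of glycine cleavage and serine breakdown, SDS fell. SDS, the serine dehydratase that turns serine into pyruvate, stood at 29.4 ± 8.65 CPM in control, 6.22 ± 2.12 in OE-MMP28, 9.72 ± 0.227 in anti-IL-8 and 6.78 ± 1.17 in anti-VEGFA (SD, n = 3). It fell by 2.24 on the log2 scale with OE-MMP28 (SE 0.23, adjusted p = 3.51e-06), a larger change than that of any enzyme of serine synthesis and opposite in direction to PHGDH. It remained below control, with log2 fold changes of -1.60 in anti-IL-8 and -2.12 in anti-VEGFA (adjusted p = 0.000124 and 6.40e-06).

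With anti-IL-8 against control, 15 of the 59 tested genes in these 6 lists passed (25.4%), near the 20.7% of all genes. On the log2 scale, the reduced folate carrier SLC19A1 rose by 0.89 (adjusted p = 0.0131) and the neutral amino acid carrier SLC1A5 by 0.87 (adjusted p = 0.00243), and SLC25A38, the mitochondrial glycine carrier, rose by 0.61 (adjusted p = 0.00588). SLC38A2, a sodium-coupled neutral amino acid carrier, fell by 0.58 (adjusted p = 0.0131). In the methionine list CTH and AHCY rose by 0.57 and 0.50, while MTR, the methionine synthase that consumes methyl-folate, fell by 0.53 and MAT2B by 0.34 on the log2 scale. In the glutathione list the cystine transporter subunit SLC7A11 fell by 0.69 and its partner SLC3A2 rose by 0.66. With anti-VEGFA against control, 7 of the 59 genes passed (11.9%), near the 11.0% of all genes. MTRR, which reactivates methionine synthase, fell against control by 0.60 in anti-IL-8 and by 0.50 in anti-VEGFA. IMPDH1, the entry to guanine nucleotides, rose by 0.66 and 0.54 in the same order, and ADSS, the entry to adenine nucleotides, fell by 0.64 and 0.57 on the log2 scale.

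TYMS supplies thymidylate, and it was compared with 13 other genes of thymidylate and deoxynucleotide supply. With OE-MMP28 against control 3 fell and none rose, where 3.16% of all genes were called. SAMHD1, which degrades deoxynucleotides, fell by 1.27 on the log2 scale (adjusted p = 1.12e-05) and the thymidine phosphorylase TYMP by 1.27 (adjusted p = 0.000403). The ribonucleotide reductase subunit RRM2 fell by 0.86 (adjusted p = 0.0385). Of 22 cell cycle genes, none passed in that comparison in edgeR, with 7 at an unadjusted p under 0.05, beside 14.5% of all genes. DESeq2 called 3, beside 4.14% of all genes, and voom 1, beside 525 of all 16046 genes, the calls of both tools being lower with OE-MMP28. Their summed level was 358 to 404 CPM over all 12 libraries. With anti-IL-8 against control, 3 cell cycle genes rose, led by MCM7 (0.56, adjusted p = 0.00934), and 7 fell, led by CCNA2, which fell by 1.22 on the log2 scale (adjusted p = 0.00481), 10 of 22 genes beside 20.7% of all genes.

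Reads of some of these enzymes could be shared with other genes. The library kit does not mark strand, so reads of TYMS and of its antisense neighbors ENOSF1 (210 to 319 counts per library) and TYMSOS (0 to 5) cannot be told apart where they overlap. With TYMS itself at 22 to 70 counts, its values are the most uncertain of the 10. PSPHP1, an unprocessed pseudogene of PSPH, had 67 to 113 counts against 141 to 239 for PSPH, so the split between them is uncertain too. PSPHP1 was at 4.92 ± 0.788 CPM in control and 6.04 ± 0.727 CPM with OE-MMP28 (adjusted p = 0.555), against the sign of PSPH. SHMT1 (69 to 107 counts) lies beside SMCR8, which had 334 to 963 counts and overlaps it. The pseudogene PSAT1P1 had at most 11 counts beside 2238 or more for PSAT1. MTHFD2L, the paralog of MTHFD2, had 151 to 274 counts, and ALDH1L1, the cytosolic counterpart of ALDH1L2, had 0 counts in every library, so the cytosolic form was not detected at this depth.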

How the data were processed

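RNA from 12 libraries, in 4 groups of 3 assigned from the sample labels, was sequenced by the authors. The deposited read counts per gene and FPKM values were made by the authors; the submitters' processing notes name HISAT2 2.0.5 and featureCounts 1.5.0-p3, and no genome build. Gene coordinates match GENCODE 29 for 58690 of 58735 genes, all 10 enzymes included. The deposited comparison columns (fold changes, p-values and group means) were not used.

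Counts were analysed in R 4.3.3 with edgeR 4.0.16: filterByExpr, TMM, and the quasi-likelihood F test in a model of the 4 group means over all 12 libraries, with Benjamini-Hochberg adjustment over 16046 genes at 0.05. The study states limma with a threshold of 0.05 and names no adjustment, so an unadjusted 0.05 was applied as a second threshold. CPM values use TMM-scaled totals. At these totals 3 counts correspond to 0.160 to 0.194 CPM, and precision covers counting and library spread only. DESeq2 1.42.0, limma 3.58.1 (voom, and FPKM with pseudocounts of 1 and 0.1), other scalings and filters, fits of the compared groups alone, the replicate number as a block, the mitochondrial share as a covariate, each library left out, and GC and length offsets (chosen after seeing the data) were alternatives. Methods were tested on simulated data. Sequences came from RefSeq; figures were drawn with Python 3.11.15, pandas 2.3.3 and matplotlib 3.10.9.

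The genes and lists were chosen with earlier results of these data known. Besides the 10 enzymes, the text names genes of the companion lists past the adjusted threshold, at most 4 per list and comparison, ATF4, MYC and NFE2L2 in any case, the 3 genes most like PHGDH, PSAT1, MTHFD2 and TYMS, and genes that share reads with an enzyme; ASNS was chosen after its values were seen. Some results under this rule are not reported here.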

Additional observations from a re-analysis of the deposited data

How the results depend on the processing

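Of the fold changes of the 10 enzymes in 6 comparisons, 1340 of 1380 values under alternatives kept their direction where called and their side of the threshold, 26 newly passed it, 14 no longer did and 0 of those called reversed. In OE-MMP28 against control, 1 enzyme was called at the adjusted threshold, 3 with DESeq2 or with GC and length offsets, 2 in a fit of the compared groups alone, with the replicate block or with the mitochondrial share as a covariate, and 0 to 3 with 1 library left out. In anti-IL-8 against OE-MMP28, 0 were called, 1 with DESeq2, without a filter or with the mitochondrial share, and 0 to 3 with 1 library left out (3 without OE-MMP28 replicate 3); at the unadjusted threshold 3 became 1 with the offsets and 0 to 3 with 1 library left out. In anti-VEGFA against OE-MMP28, 0 became 1 with DESeq2 and 0 to 1 with 1 library left out, and 4 at the unadjusted threshold became 2 in a fit of the compared groups and 2 to 5 with 1 library left out. Against control, 3 with anti-IL-8 became 1 to 4 with 1 library left out, and 1 with anti-VEGFA became 2 with DESeq2 or the replicate block and 1 to 2 with 1 library left out. In the joint test, 3 became 1 with library totals, 5 without a filter and 1 to 5 with 1 library left out. Where a library was left out, fewer samples entered the fit; the cause of the other differences was not tested. Over all genes, the 507 adjusted calls in OE-MMP28 against control became 938 with GC and length offsets and 295 to 641 with 1 library left out. The 0 calls in anti-IL-8 against OE-MMP28 became 2122 with DESeq2, 1438 without a filter, 795 with the replicate block, 1739 with the mitochondrial share and 4203 without OE-MMP28 replicate 3, and the 55 in anti-VEGFA against OE-MMP28 became 429, 400, 37 and 310 under the first 4 of these, 1 in a fit of the compared groups and 8 to 1498 with 1 library left out (1498 without OE-MMP28 replicate 3). Against control, the 3317 calls with anti-IL-8 became 1313 to 4309 with 1 library left out and 6039 in a fit of the compared groups, and the 1760 with anti-VEGFA became 662 to 2582 with 1 library left out. The joint test has no value in fits of the compared groups alone. The replicate numbers gave no steady pairing: 4 of 18 same-numbered pairs had deviations correlated above 0.1, with a range of -0.18 to 0.28. With 3 libraries per group this cannot exclude a batch shared by some of the libraries. No libraries of a group agreed within sampling noise (chi-square per degree of freedom of at least 6.17). Depth limits TYMS and SHMT1 most.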
